A study of Caenorhabditis elegans and Caenorhabditis briggsae with 12 samples.

Results

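Calpains are proteases that cut other proteins when cytosolic calcium rises, and 9 *C. elegans* genes named *clp*, for calpain family, are described here across heat-shocked and unheated larvae. The members are the 9 genes *clp-1*, *clp-2*, *clp-3*, *clp-4*, *clp-6*, *clp-7*, *clp-8*, *clp-9* and *clp-10*, taken by name from the 20213 genes of the *C. elegans* file, with the 2 *C. briggsae* genes Cbr-*clp-7* and Cbr-*clp-9* among the 21168 genes of the file of that species. RNA-seq was done on whole larvae at the L2 stage, from N2 (the standard laboratory strain of *C. elegans*) and from AF16, a *C. briggsae* strain. In each species, 3 biological replicates were heat-shocked (HS), by immersion at 34 °C for 30 min, and 3 stayed at 20 °C (NHS), which makes 12 libraries. The study asked which genes take part in the heat shock response of each species. The genes were chosen by their names with their normalized counts in these HS and NHS libraries already known, so these values are given as a description and carry no p-value.

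Calpains are cysteine proteases of the cytosol that clip their substrates at a limited number of places and so change what those proteins do, rather than degrading them to the end. Several worm calpains lack the calcium-binding EF-hand region of the classical mammalian enzymes and keep the protease core. In *C. elegans*, *clp-1* and the related gene *tra-3* are known for their part in the necrotic death of neurons with overactive ion channels, *clp-1* also for its expression in muscle, and *tra-3* for its role in sex determination.

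Each value is a normalized count, the number of reads of a gene scaled by the authors to be comparable among the 6 libraries of a species. The depth was estimated from the spacing of the lowest values at 28600000 to 43900000 reads in the *C. elegans* HS libraries and 32800000 to 39000000 reads in the NHS libraries. A change is given as log2(normalized count + 1) in HS minus that in NHS, with its standard error (SE) from limma, and a call, up or down, needed a Benjamini-Hochberg adjusted p below 0.01 together with a difference of more than 2-fold. The heat-induced chaperone genes *hsp-16.2* and *hsp-70* had log2 fold changes of 6.59 and 6.76, and the tubulin gene *tba-2*, often taken as a stable reference, 0.22. All 11 marker genes for body wall muscle, pharynx, intestine, neurons, hypodermis and germ line were detected in HS and NHS larvae. None was called, but 9 had an unadjusted limma p under 0.05, a cut that 52.6% of all genes tested passed. In 4 of the 11 every HS library was above every NHS library, and in 5 every HS library was below. Of all genes tested, 30.6% and 25.5% had these patterns. For *myo-3*, among the 4, HS replicate 2 and NHS replicate 2 both stood at 85086.5 as printed. The hypodermis marker *dpy-7* had a log2 fold change of -0.9992 (SE 0.46), with overlapping groups (1752 to 4146 in HS, 3507 to 7274 in NHS). The intestine markers *ges-1* and *elt-2* had -0.58 and 0.65. Of 6 yolk protein genes, which belong to the adult intestine, 5 were called up. Of all genes tested, 10.2% were called up, and of those with a mean of 10 to 50, 24.5%. The called *vit-3* and *vit-5* had NHS means of 0 and 1.54. They passed the filter on low values, a mean of 2 or more, only through their HS values and could not be called down. The 6 yolk protein genes had a summed level of 157 to 280 in HS libraries and 47.6 to 63.9 in NHS libraries. In RNA from whole larvae, a difference in the number of cells of a type cannot be told apart from a difference in RNA per cell.

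By their levels in NHS larvae, the 9 genes are described here as an abundant and a scarce set. The step per kilobase between the sets, from *clp-9* to *clp-10*, was 11.4-fold in NHS larvae and 1.85-fold in HS larvae. In HS larvae it was smaller than the 4.53-fold step from *clp-2* to *clp-9*, so HS levels show no such split. Per kilobase of the longest annotated transcript, *clp-1* was the most abundant, at 2220 ± 205 normalized counts per kb in HS larvae and 1729 ± 198 in NHS larvae (SD, n = 3 each). Next came *clp-7* and *clp-4*, at 637 ± 8.68 and 709 ± 13.9 per kb in HS larvae, and at 718 ± 53.96 and 704 ± 33.8 in NHS larvae. In HS libraries every *clp-4* value was above every *clp-7* value, and among NHS libraries the levels of that pair overlapped. *clp-2* followed, with 253 ± 22.1 per kb in HS larvae and 288 ± 10.7 in NHS larvae, and then *clp-9*, with 55.9 ± 3.03 in HS larvae and 52.6 ± 9.26 in NHS larvae. Each of these 5 genes stood apart from the next one down in every library of a group, except for the *clp-7* and *clp-4* pair in NHS.

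The remaining 4 genes, *clp-10*, *clp-3*, *clp-6* and *clp-8*, were scarce. In HS larvae *clp-10* led them with 30.1 ± 7.10 normalized counts per kb (SD, n = 3), above all libraries of the other scarce genes, while *clp-6* (15.5 ± 2.70), *clp-8* (10.8 ± 3.26) and *clp-3* (9.61 ± 3.25) overlapped as neighbours in that order. In NHS larvae the levels per kb were 4.63 ± 3.06 for *clp-10*, 4.60 ± 1.12 for *clp-3*, 3.00 ± 0.628 for *clp-6* and 0.327 ± 0.567 for *clp-8*, and the first 3 of these overlapped as neighbours. The places of *clp-1*, *clp-2*, *clp-9* and *clp-10* in this order were the same in HS and NHS larvae, *clp-4* and *clp-7* exchanged places, and *clp-8*, alone at the bottom in NHS, overlapped *clp-6* and *clp-3* in HS.

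**Figure D1:**
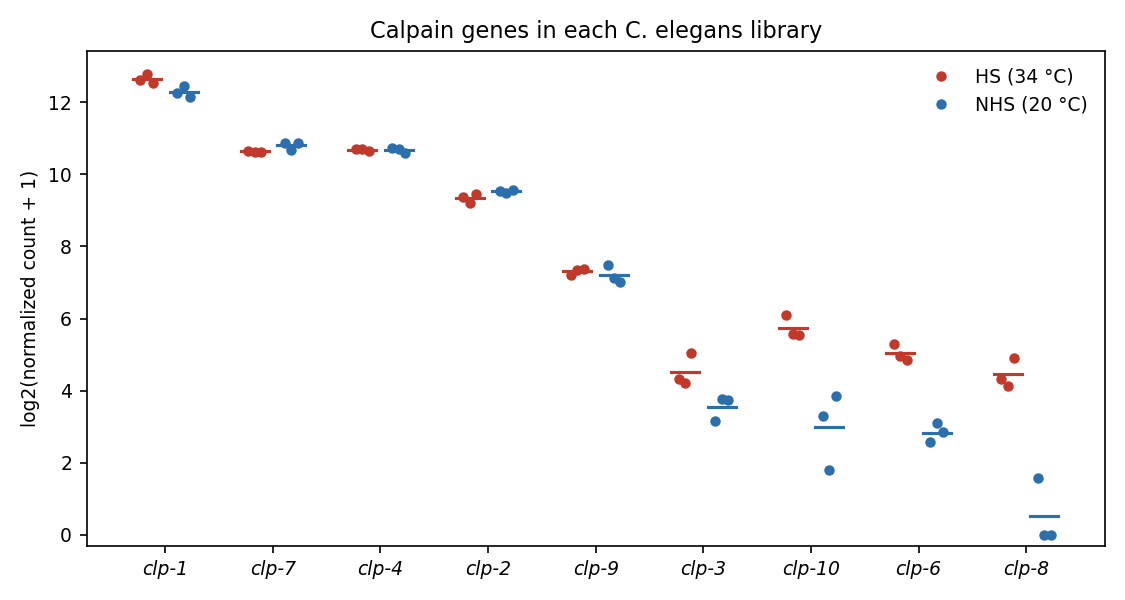
Level of each calpain gene in every *C. elegans* library, as log2(normalized count + 1) on the vertical axis, with HS larvae in red on the left and NHS larvae in blue on the right of each gene, points for single libraries and bars for the mean of 3. The 5 abundant genes on the left lie close together in HS and NHS, and for the 4 scarce genes on the right every HS point lies above every NHS point; these values are not divided by transcript length.

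After heat shock, 3 of the 9 calpain genes were called up (*clp-6*, *clp-8* and *clp-10*), 0 were called down and 6 were not called. Of all 17551 *C. elegans* genes tested, 10.2% were called up and 2.77% down, and their median log2 fold change was 0.04, against 0.36 for the 9 calpain genes. In 5 of the 9, every HS library was above every NHS library, and in 2 every HS library was below, where 30.6% and 25.5% of all genes tested had these patterns. The rule that named these genes used this contrast, and nothing is read from the counts. All 9 genes passed the filter on low values, a mean normalized count of 2 or more across 6 libraries, *clp-8* through its HS values.

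The gene *clp-8* (chromosome I, 13254141 to 13257729, plus strand, WBcel235) had the largest log2 fold change of the 9. HS replicates 1 to 3 held 19.1, 16.6 and 29.0 normalized counts, against 1.97, 0 and 0 in NHS replicates 1 to 3. In whole reads that was 20, 16 and 21 in HS and 2, 0 and 0 in NHS. The gene was thus close to undetected without heat and was seen in all 3 heated libraries. The log2 fold change was 3.94 (SE 0.52), a value that depends on the pseudocount of 1. Depth-scaled totals gave a ratio of 34.9, with a 95% interval of 9.22 to 295 that covers counting error only.

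For *clp-10* (chromosome III, 35454 to 38217, minus strand), the values were 67.97, 46.8 and 45.5 normalized counts in HS and 8.85, 2.505 and 13.3 in NHS. These came from 71, 45 and 33 reads in HS and from 9, 3 and 15 in NHS. All HS libraries were above all NHS libraries, with the 3 NHS values spread more widely on the log scale than the 3 HS values. The log2 fold change was 2.76 (SE 0.49), the ratio of totals 6.75 (95% interval for counting error 4.46 to 10.6). HS replicate 1 was the highest, and without it the log2 fold change was 2.58 and the call was lost.

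A more even pattern was seen for *clp-6* (chromosome IV, 1431190 to 1435039, minus strand). It had 38.3, 30.2 and 27.6 normalized counts in HS and 4.92, 7.515 and 6.21 in NHS, from 40, 29 and 20 reads in HS and 5, 9 and 7 in NHS. The groups were well apart, with a log2 fold change of 2.20 (SE 0.29) and a ratio of totals of 5.19 (95% interval for counting error 3.20 to 8.79).

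The last scarce gene, *clp-3* (chromosome I, 12073072 to 12084225, minus strand), was not called. Its values were 19.1, 17.7 and 31.7 normalized counts in HS and 7.86, 12.5 and 12.4 in NHS, from 20, 17 and 23 reads in HS and 8, 15 and 14 in NHS. The groups did not overlap, and the log2 fold change of 0.98 (SE 0.33) was near the limit of 1 that a 2-fold change sets. It was not called with no minimum fold change either. Its ratio of totals was 1.98 (95% interval for counting error 1.296 to 3.08).

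The scarce set lies in a range of levels where calls were common. Among the 2932 genes with a mean of 10 to 50, to which all 4 belong, 24.5% were called up and 40.6% had every HS library above every NHS library. Of the 6210 genes with a mean over 500, 1.77% were called up, and of the 5490 with a mean of 50 to 500, 5.96%. Genes listed at 0 made up 5.62 to 7.19% of each HS library and 12.2 to 12.9% of each NHS library, and the part of such library-wide differences in the values of *clp-3*, *clp-6*, *clp-8* and *clp-10* was not tested.

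**Figure D2:**
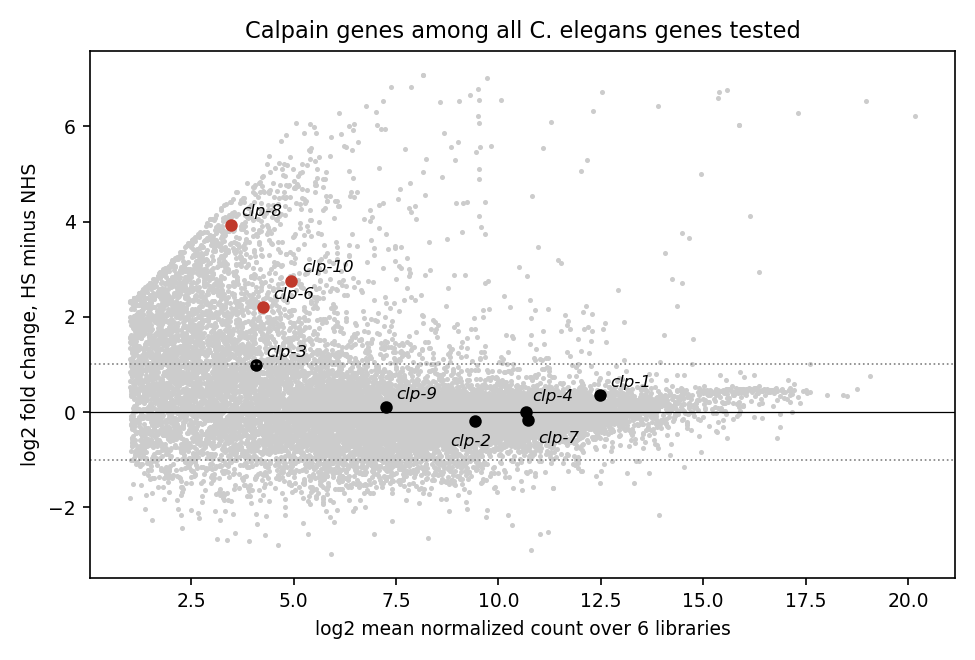
Heat shock change of every *C. elegans* gene tested (grey) and of the 9 calpain genes (red where called up, black where not), with the log2 of the mean normalized count over 6 libraries on the horizontal axis and the log2 fold change, HS minus NHS, on the vertical axis. *clp-6*, *clp-8* and *clp-10* lie above the dotted line at a 2-fold change among many scarce genes with rises of this size, and the 5 abundant genes lie near 0.

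The 5 abundant members differed by less than 2-fold between HS and NHS. *clp-1* (chromosome III, 7979959 to 7986380, plus strand), the calpain with known roles in muscle and in neuron death, had 6325, 7063 and 5887 normalized counts in HS and 4892, 5624 and 4494 in NHS. All HS libraries were above all NHS libraries, with means of 6425 ± 594 in HS and 5003 ± 573 in NHS (SD, n = 3 each) and a log2 fold change of 0.36 (SE 0.09) that became 0.01 with all libraries scaled to equal totals. The body wall muscle myosin genes *unc-54* and *myo-3* had log2 fold changes of 0.37 and 0.19, their summed level was 459715 to 508369 in HS and 371564 to 414754 in NHS, and their part in the value of *clp-1* was not tested.

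On the same chromosome, *clp-4* (1807740 to 1818323, minus strand) had 1655, 1650 and 1597 normalized counts in HS and 1680, 1655 and 1534 in NHS. The groups overlapped, and the log2 fold change was 0.01 (SE 0.06). *clp-2* (chromosome III, 4700325 to 4704025, minus strand) had 658, 583 and 694 in HS and 734, 708 and 763 in NHS, so that the highest HS library stayed under the lowest NHS library, and its log2 fold change was -0.19 (SE 0.08). For *clp-7* (chromosome IV, 1435465 to 1445966, minus strand), the values were 1616, 1585 and 1574 in HS and 1861, 1638 and 1881 in NHS. Here too all HS libraries were below all NHS libraries, by a narrow margin against NHS replicate 2, with a log2 fold change of -0.17 (SE 0.07). *clp-9* (chromosome V, 9882034 to 9885968, minus strand) had 148, 160 and 165 in HS and 178, 139 and 128 in NHS. Its groups overlapped, NHS replicate 1 being the highest library of all, and the log2 fold change was 0.10 (SE 0.14). With libraries scaled to equal totals, where the median of all genes was -0.32 in place of 0.04, *clp-4* and *clp-9* had values below 0 (-0.34 and -0.26), and the other 7 members kept their sign.

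One further calpain gene, *tra-3* on chromosome IV, lies outside the *clp* names. It had 1009, 1016 and 908 normalized counts in HS and 1145, 1057 and 1183 in NHS, with every HS library below every NHS library. The log2 fold change of -0.21 (SE 0.07, limma adjusted p = 0.045 after Benjamini-Hochberg) did not reach the thresholds. Per kilobase, *tra-3* stood at 438 ± 27.1 in HS larvae and 505 ± 29.0 in NHS larvae, between *clp-2* and the *clp-4* and *clp-7* pair in each group.

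In *C. briggsae*, the study's table of ortholog partners sets Cbr-*clp-7* beside *clp-6* and Cbr-*clp-9* beside *clp-10*, although the names of those genes point to *clp-7* and *clp-9*. Cbr-*clp-7* had 2784, 3117 and 3255 normalized counts in HS and 2858, 2855 and 2899 in NHS. HS replicate 1 was the lowest library and the other 2 HS libraries were the highest, so the groups overlapped, with a log2 fold change of 0.09 (SE 0.07), or -0.30 with equal totals. Cbr-*clp-9* had 692, 988 and 1110 in HS and 671, 580 and 661 in NHS. All HS libraries were above all NHS libraries, HS replicate 1 by a small margin, and the log2 fold change was 0.52 (SE 0.17). Neither gene was called, in a species where 4.5% of 18470 genes were called up, 1.73% down, and 25.7% had every HS library above every NHS library.

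Set beside the *C. elegans* genes, both partners had values nearer to those of their namesakes *clp-7* and *clp-9* than to those of *clp-6* and *clp-10*. The log2 fold changes were 2.20 for *clp-6*, -0.17 for *clp-7* and 0.09 for Cbr-*clp-7*, and they were 2.76 for *clp-10*, 0.10 for *clp-9* and 0.52 for Cbr-*clp-9*. The files of the 2 species were normalized separately, so their levels were not compared, and the difference between the species was not tested. Partners of the other calpain genes were not analysed here.

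**Figure D3:**
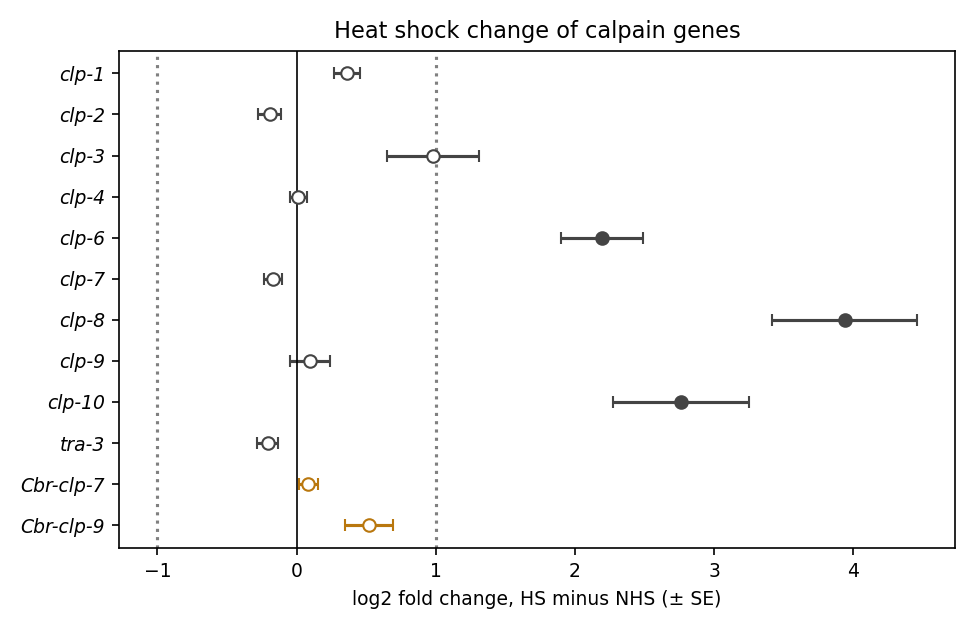
Log2 fold change, HS minus NHS, with its standard error on the horizontal axis for the 9 calpain genes and *tra-3* of *C. elegans* (grey) and for 2 *C. briggsae* partners (orange), filled where called up and open where not, with dotted lines at 2-fold changes. Values from 2.20 to 3.94 are seen for *clp-6*, *clp-10* and *clp-8*, *clp-3* lies at the line, and the others lie between -0.21 and 0.52, of which *clp-4*, *clp-9* and Cbr-*clp-7* fall below 0 with libraries scaled to equal totals.

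The genes around the calpain loci offer values that played no part in naming the members. Within 5 kb of a member lie 24 other annotated genes, around 8 of the 9 members, of which 23 had enough reads for the test. In this set 5 were called up and 0 down, where 10.2% of all genes tested were up, 2.77% were down and, among genes with a mean of 10 to 50, 24.5% were up. That range does not cover *T04A8.13*, *Y77E11A.23* and *F44F1.6*, called neighbours with means below 10, and the share for such low means is not given here. The called *T04A8.13*, *Y77E11A.23*, *clec-171* and *F44F1.6* had NHS means of 0.296, 0.934, 1.16 and 0.563 and passed the filter on low values only through their HS values. From such NHS levels a call down was out of reach, so their calls and p-values are a description. The count is small, and no test of where the called neighbours lie was made. Of the 5, 2 flank *clp-6*, 1 *clp-8*, 1 *clp-10* and 1 *clp-2*. Around the other members, 0 of 12 tested neighbours were called, among them *aco-2*, the mitochondrial aconitase gene beside *clp-1* (log2 fold change 0.19, SE 0.05), and *rimb-1*, a synapse gene beside *clp-4* (-0.04, SE 0.06). The other tested neighbours that were not called were *C06G4.4*, *hrpk-2* and *npr-17* at *clp-1*, *T04A8.7*, *dnj-18*, *sel-13*, *mrpl-16* and *pgap-2* at *clp-2*, *F58D5.2*, *F58D5.3*, *Y47H10A.2* and *Y47H10A.3* at *clp-3*, *pvf-1* at *clp-4*, *ZK1053.3* at *clp-8*, and *srab-26* and *fshr-1* at *clp-9*. Their log2 fold changes ran from -0.73 for the neuropeptide receptor gene *npr-17* to 1.62 for *Y47H10A.2*, a gene with mean levels of 3.53 in HS and 0.557 in NHS, and *sdz-31* beside *clp-9* had too few reads to be tested. *aco-2*, *T04A8.7* (log2 fold change 0.23) and *pgap-2* (-0.51) missed only the 2-fold limit, with limma adjusted p = 0.0089, 0.0070 and 0.0041.

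On chromosome IV, *clp-7* and *clp-6* lie head to tail on the minus strand with a gap of 425 bp, *clp-7* upstream. Per kilobase, *clp-6* reached 2.86, 2.30 and 2.12% of the level of *clp-7* in HS replicates 1 to 3, and 0.319, 0.554 and 0.399% in NHS replicates 1 to 3. The downstream neighbours of *clp-6* on the same strand both rose. *Y77E11A.23*, a gene without a known role, had 18.2, 14.6 and 8.28 normalized counts in HS and 1.97, 0.835 and 0 in NHS (log2 fold change 3.00, SE 0.52, limma adjusted p = 0.0015). The C-type lectin gene *clec-171* had 36.4, 34.3 and 22.1 in HS and 0.983, 2.505 and 0 in NHS (log2 fold change 4.03, SE 0.49, limma adjusted p = 2.3e-04). For this stretch of chromosome IV, the scarce genes downstream of *clp-7* were higher in every HS library than in any NHS library and *clp-7* itself was lower.

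Close to the left end of the annotated genes of chromosome III, the collagen gene *col-88* lies 2845 bp upstream of *clp-10* and is read in the opposite direction. It had 77.9, 99.4 and 88.7 normalized counts in HS and 9.10, 9.64 and 8.21 in NHS, with a tighter spread than *clp-10* (log2 fold change 3.16, SE 0.22, limma adjusted p = 1.1e-05). The gap depends on the end of *clp-10* in the annotation used here. *F44F1.6*, 3136 bp past *clp-8* on the other strand, had 5.42, 6.05 and 3.45 in HS and 0.614, 0.521 and 0.554 in NHS (log2 fold change 1.91, SE 0.47, limma adjusted p = 0.0086), a call lost without any 1 of the 6 libraries. Each of its NHS values was below that of 1 read in the library (0.983, 0.835 and 0.887), so its narrow NHS spread says little about the replicates. *T04A8.13*, 2952 bp from *clp-2*, had 8.62, 5.20 and 8.28 in HS and 0, 0 and 0.887 in NHS (log2 fold change 2.73, SE 0.50, limma adjusted p = 0.0019). Without HS replicate 1, *T04A8.13* and *Y77E11A.23* lost their calls, which left *clec-171* and *col-88*.

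In a wider window of 25 kb on each side, chosen after the values had been seen, 16 of 85 tested genes were called up and 1 down, beside 10.2% and 2.77% of all genes tested. Among genes with a mean of 10 to 50, 24.5% were called up, and the window counts were not compared with genes of like levels. Around *clp-8* 6 of 12 tested genes were up, among them *ZK1053.2* (log2 fold change 5.56, SE 0.33) and *ZK1053.4* (3.91, SE 0.48), while *ZK1053.3*, the gene next upstream of *clp-8*, stood at -0.20 (SE 0.22). Of the 6, *ZK1053.6*, *ZK1053.4*, *F44F1.6* and *vet-6* had NHS means of 0.296, 0.328, 0.563 and 1.82. They passed the filter on low values only through their HS values. Around *clp-6* 3 of 9 were up, the third being *Y77E11A.8* (4.54, SE 0.36), next in line after *clec-171* on the same strand. Near *clp-10* 3 of 9 were up and 1, *H10E21.5*, was down (-1.24, SE 0.09). Members that were not called had called genes near them too. In the window of *clp-7*, 3 of 8 tested genes were up, the same genes as around *clp-6*. For *clp-3* it was 2 of 11, for *clp-1* 1 of 15 and for *clp-2* 1 of 16. The windows of *clp-4* and *clp-9* held 0 called genes of 4 and 8 tested in limma.

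**Figure D4:**
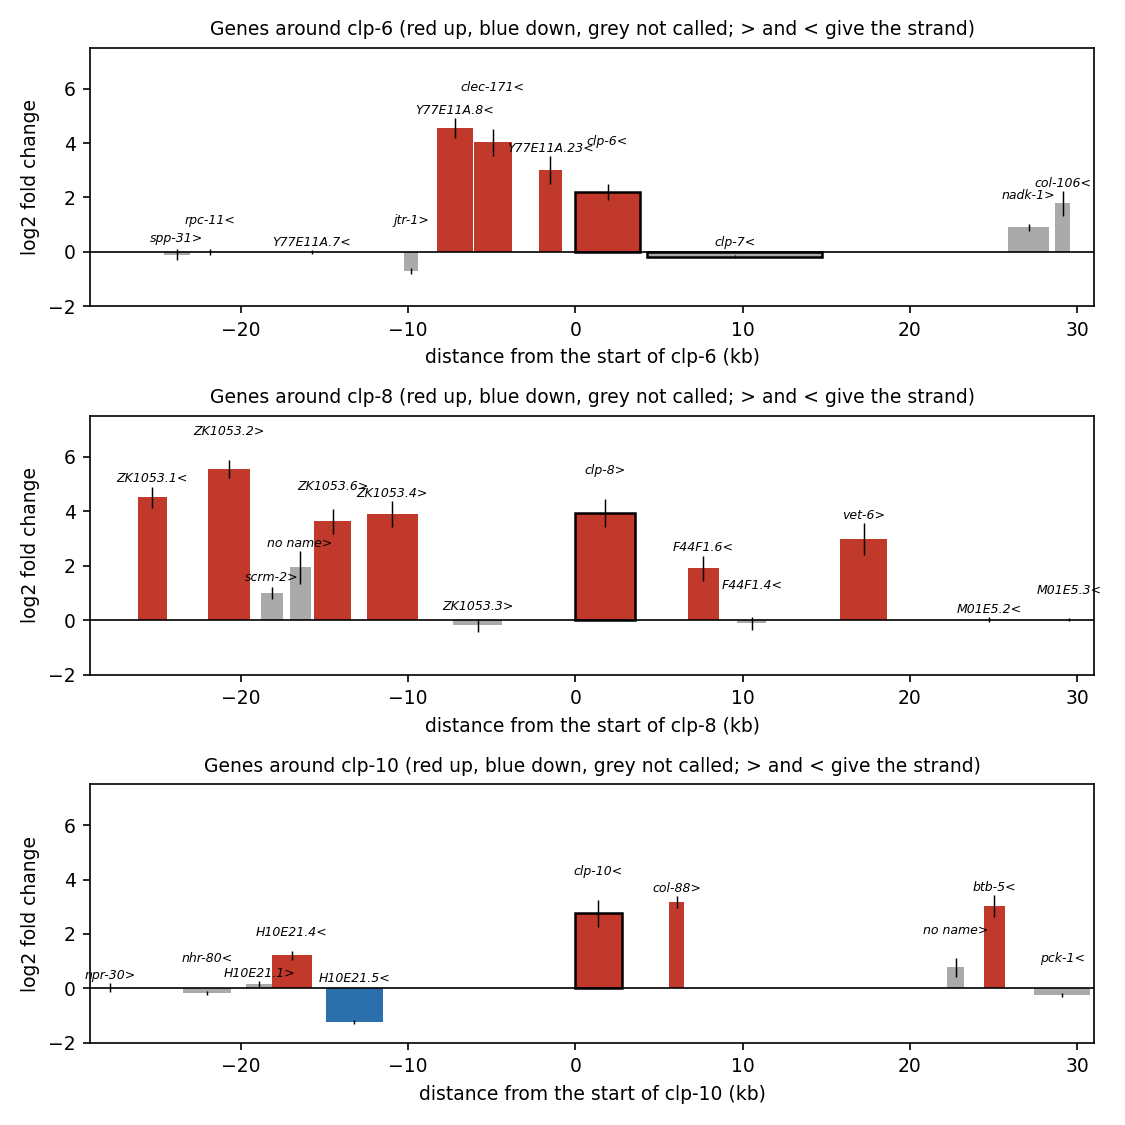
Genes within 25 kb of *clp-6*, *clp-8* and *clp-10*, drawn to scale along the horizontal axis as distance in kb from the leftmost base of the calpain gene, with the log2 fold change, HS minus NHS, as bar height and its standard error as a line; calpain genes have a black outline and arrows give the strand. Red bars, called up, form a run of 4 genes up to *clp-6* with the grey bar of *clp-7* directly beside it, and stand among grey bars around *clp-8* and *clp-10*.

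Genes most like the 2 calpains with the largest changes were other scarce genes. Likeness was the Euclidean distance between log2(normalized count + 1) values centred on each gene's mean over the 6 libraries. Nearest to *clp-8* were the F-box gene *fbxb-60* (distance 0.46) and the chemoreceptor genes *srg-47* (0.51) and *str-32* (0.61). *fbxb-60* had 19.1, 11.4 and 24.8 normalized counts in HS and 1.97, 0 and 0 in NHS. Nearest to *clp-10* were *hpo-33* (0.54), *M02F4.1* (0.58) and *C49G7.13* (0.63), all with means under 25 in HS larvae. These genes were picked for likeness over the same 6 libraries, so a shared pattern across them follows from the choice.

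The necrotic cell death genes set beside the calpains differed by less than 2-fold after heat shock. The list of 12 genes of necrotic cell death holds *tra-3* itself and 11 genes that release calcium, form the leaky channels or digest the cell beside calpains. Of these 12, 0 were called up and 0 down in limma, with a median log2 fold change of -0.21 where all genes had 0.04, and 9 had an unadjusted p under 0.05, a cut that 52.6% of all genes tested passed. Without *tra-3*, 0 of 11 were called, 8 had an unadjusted p under 0.05 and the median was again -0.21. The largest changes among them were those of the degenerin channel genes *unc-8* (192 ± 27.0 in HS and 319 ± 16.9 in NHS, log2 fold change -0.74) and *deg-1* (92.2 ± 13.7 in HS and 133 ± 5.13 in NHS, -0.53), which neurons express. The 3 neuron markers *rab-3*, *snb-1* and *unc-119* had log2 fold changes of -0.54, -0.25 and -0.61 and a summed level of 2236 to 2366 in HS and 2928 to 3097 in NHS, and their part in the channel values was not tested.

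Among 17 calcium channels, pumps and calcium-binding regulators, 0 were called up and 0 down, 14 had an unadjusted p under 0.05 (52.6% of all genes tested) and the median was 0.00. The gene with the largest change was *calu-1*, for a calumenin of the secretory pathway, with 15628, 18187 and 16129 normalized counts in HS and 8791, 9059 and 11131 in NHS (log2 fold change 0.79, SE 0.10), below the 2-fold limit. The calcineurin B subunit gene *cnb-1* stood at -0.42 (SE 0.07). Of 21 muscle attachment and dystrophin complex genes, a setting in which worm calpains have been studied, 0 were called either way in limma and 14 had an unadjusted p under 0.05, again beside 52.6% of all genes. Their median was 0.10, and the largest changes were those of the syntrophin gene *stn-1* (-0.46, SE 0.12) and the dystrobrevin gene *dyb-1* (-0.45, SE 0.09).

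Other cysteine proteases gave a mixed picture. Of 8 cathepsin genes of the papain family, which work in lysosomes or outside cells, 0 were called up and 1 was called down. The shares among all genes tested were 10.2% up and 2.77% down. The 1 gene called was *cpz-1*. This cathepsin Z gene, needed for molting, had 512, 691 and 711 normalized counts in HS and 1672, 1175 and 2143 in NHS (log2 fold change -1.35, SE 0.26, limma adjusted p = 0.0098). Every HS library was below every NHS library, though the call was lost without HS replicate 1, 2 or 3 or NHS replicate 1.

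Among 7 caspase and apoptosis genes, 2 were called up and 0 down, with a list median of 0.35. Of all genes tested, 10.2% were called up and 2.77% down, and their median was 0.04. The caspase gene *csp-1* rose to 244, 122 and 328 normalized counts in HS, against 7.995, 12.9 and 14.8 in NHS (log2 fold change 4.10, SE 0.38, limma adjusted p = 1.3e-04). *csp-3*, for a caspase homolog that restrains the cell death caspase CED-3, had 7.98, 9.17 and 2.56 in HS and 0, 0 and 0.821 in NHS (log2 fold change 2.49, SE 0.58, limma adjusted p = 0.0066), and it lost its call without any 1 library but HS replicate 3. It passed the filter on low values only through its HS values. The genes of the core apoptosis pathway did not pass the test, with log2 fold changes of 0.85 (SE 0.47) for *egl-1*, which sets off the pathway, 0.03 (SE 0.09) for *ced-9*, which restrains it, -0.22 (SE 0.10) for *ced-4*, which activates the caspase, and 0.35 (SE 0.17) for the caspase gene *ced-3*.

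**Figure D5:**
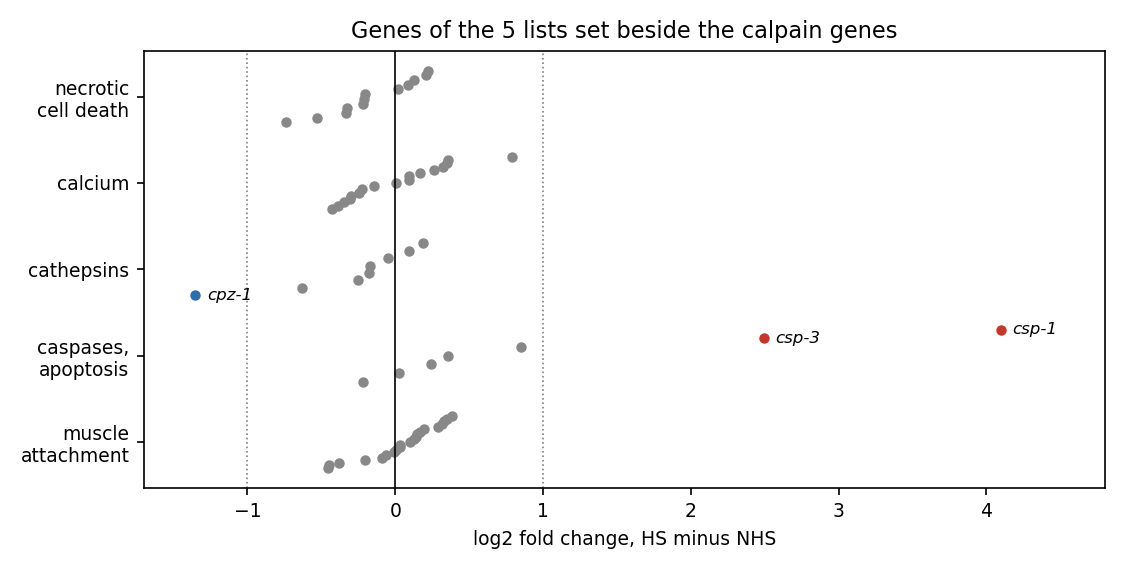
Log2 fold change, HS minus NHS, of each gene in 5 lists, with 1 point per gene, rows for the lists, dotted lines at 2-fold changes, red for genes called up, blue for genes called down and grey for genes not called. Nearly all points lie within the dotted lines, and the 3 beyond them are *csp-1* (4.10), *csp-3* (2.49) and *cpz-1* (-1.35).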

How the data were processed

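The authors isolated total RNA from whole L2 larvae, built stranded total RNA libraries, assigned reads to transcripts of each species with Salmon 0.13.1 and normalized gene-level counts with DESeq2 1.18.1, per the labels and the study's methods. The deposited values are signal values, normalized counts per gene. A read was worth 1 fixed step per library, but only 90.4 to 92.0% (*C. elegans*) and 97.4 to 98.0% (*C. briggsae*) of values under 20 were whole multiples within 0.05 reads, so count tests were not run. The read numbers given belong to genes with 1 transcript whose values were whole.

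Each species was fitted alone, for genes whose mean across 6 libraries was 2 or more, by limma 3.58.1 (R 4.3.3, statmod 1.5.0) on log2(normalized count + 1), with trend and robust variances, two-sided, with Benjamini-Hochberg adjustment over all genes tested. The fit was tested on simulated data. The simulated counts had a common spread for all genes and no library-wide shift, so they say nothing about such shifts in the HS libraries. Depth is the sum of a library divided by its step. Counting intervals (95%, conditional binomial, Clopper-Pearson) cover counting error only. Levels per kb use the longest transcript of the WBcel235 annotation, the source of all positions. Python 3.11.15, pandas 2.3.3, numpy 2.4.6, scipy 1.17.1 and matplotlib 3.10.9 were used. The members, gene lists, window and tests were chosen with earlier results of these data known. Genes named are the 9 members, their partners, *tra-3*, the neighbours within 5 kb, up to 4 called genes per list or else the 2 with the largest changes, the 3 genes most like each of 2 members, and check and marker genes. *ced-3*, *ced-4*, *ced-9*, *egl-1* and genes beyond 5 kb were named after their values were seen. A *C. briggsae* column named AF15 was taken as NHS replicate 3 of AF16, and 0 columns were left unused. The labels call the replicates biological without naming separate cultures, and p-values measure the spread between these samples. Alternatives were other pseudocounts, filters, scalings and thresholds, a replicate term and leaving out each library. Genome, promoter and protein sequences were not used here.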

Additional observations from a re-analysis of the deposited data

How the results depend on the processing

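Calls of *clp-6* and *clp-8* held under every alternative run, and that of *clp-10* under all but leaving out HS replicate 1. The log2 fold change of *clp-8* was 4.66 with a pseudocount of 0.5 and 2.22 with one of 5, which shows how far the few NHS reads limit it. Over all member and partner values, 131 stayed within 1 SD of the replicates and 12 moved further, 8 of them with equal totals. The 12 all came from other pseudocounts and scalings. Many of the 131 could not move, so their number says little about stability. With other filters or a term for the replicate number, each log2 fold change stays the same by construction. Leaving out 1 library shifts a group mean by less than the SD of that group, and none of those values moved. Of the 65 list genes, 2 up and 1 down in the report, 1 was up with a pseudocount of 5 and 1 with a mean of at least 10, and 0 were down without a filter and 0 with upper quartile scaling. A mean of at least 10 left 1129 *C. elegans* genes up and 2 neighbours up (5 in the report). Equal totals gave 1329 genes down in *C. elegans*, 1479 in *C. briggsae* (486 and 320 in the report), 2 list genes down and 1 neighbour down. With no minimum fold, 2765 genes were up and 2266 down in *C. elegans*, 1501 and 1285 in *C. briggsae*, 12 and 9 in the lists, and 1 neighbour was down. At an adjusted p under 0.05, *C. briggsae* had 1459 up and 594 down. In the 25 kb window, chosen after seeing the data, 16 neighbours were up and 1 down.

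Leaving out 1 library at a time gave 1137 to 1611 genes up and 338 to 595 down in *C. elegans*, 348 to 1228 up and 68 to 649 down in *C. briggsae*, 2 to 3 calpain genes up, 1 to 2 list genes up and 0 to 1 down, and 2 to 4 neighbours up. A term for the replicate number (replicate block) called 3 calpain genes up, 4 neighbours, and 1916 genes up and 627 down in *C. elegans*. Deviations of same-numbered HS and NHS libraries correlated at 0.09, 0.06 and 0.15 in *C. elegans* and 0.02, 0.08 and 0.07 in *C. briggsae*, each library best with its own number, which is a hint from the data and not from the design.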

Other observations

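Summed over the 9 calpain genes, normalized counts came to 10051 to 11152 in HS libraries and 8832 to 9787 in NHS libraries. *clp-1* alone made up 58.6 to 63.3% of the sum in HS and 50.9 to 57.5% in NHS. The scarce genes *clp-3*, *clp-6*, *clp-8* and *clp-10* together held 0.998 to 1.37% in HS and 0.230 to 0.362% in NHS. These shares are not adjusted for transcript length.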
